A study of Mus musculus with 3 samples.

Results

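Guidance receptors and adhesion molecules of migrating neuroblasts were followed through single cells of the adult mouse subventricular zone (SVZ), the neurogenic layer along the lateral ventricle. The 10 genes were chosen by symbol among 27998 rows of the gene tables: Robo1, Robo2, Plxna4, Nrp1, Dcc, Ncam1, Islr2, Cd200, Shtn1 and Tiam2. Cells came from 5 adult mice that joined aSMACreERt2::Rosa26-tdTomato with the reporter allele of B6;129S-Sox2tm2Hoch/J. Their strain background was C57/Bl6(3/4) crossed with 129S1SvlmJ(1/4). In this line a tamoxifen-dependent Cre under the smooth muscle actin promoter switches on tdTomato, and GFP reports Sox2. All libraries held GFP-positive cells: 1 library was tdTomato-positive (1200 cells sorted) and 2 were tdTomato-negative (1200 and 6000 sorted, called negative libraries 1 and 2 below). The GFP gate means that neuroblasts without GFP were not sampled. The labels do not say which mice went into which library, so the spread between these libraries may be technical. The p-values rest largely on a spread pooled over genes and, in class comparisons, over all classes. They say little of each gene's own spread between libraries.

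Neuroblasts born in the SVZ migrate in chains to the olfactory bulb along the rostral migratory stream. Slit proteins repel them through Robo receptors, semaphorins act through plexins with neuropilins as co-receptors, and netrin-1 is read by Dcc. Polysialic acid carried on Ncam1 loosens contact between the migrating cells, while Rac activators and actin-linking proteins turn guidance signals into movement.

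After filtering, 252, 256 and 1121 cells were kept in the tdTomato-positive library and negative libraries 1 and 2. Unique molecular identifiers (UMIs, each standing for 1 captured transcript) summed to 788344, 929997 and 3593633 over all deposited barcodes and to 720340, 926246 and 3585917 over the kept cells, and the median per kept cell ranged from 2401 to 2639.5. Levels are given as CPM, the gene's UMIs per 1000000 UMIs of a cell class in a library. The assay reads transcript 3' ends, so levels are compared between cells and not between genes. Intervals on levels (exact Poisson) and on shares of cells (exact Clopper-Pearson) are 95% and cover counting error only. The libraries shared 3 cell barcodes.

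Clusters were named by markers without the 10 genes. The neuroblast-like class held 286 cells (1, 44 and 241 in the 3 libraries), with Dcx, a microtubule protein of migrating neurons, at 537 CPM against 40.9 in astrocyte-like and 4.94 in ependymal-like cells. A second neuronal class of 490 cells (1, 100 and 389), called Prokr2-Foxp2-Tshz1 cell-like after its markers, joined a Prokr2-led cluster of 217 cells and a Meg3-led cluster of 273 cells. Dcx stood at 719 CPM in the Prokr2-led cluster and 687 in the Meg3-led cluster. The summed neuroblast markers stood at 16173 and 14943 CPM in this class and at 15678 and 15591 in the neuroblast-like class (negative libraries 1 and 2). Dividing cell markers summed to 327 and 291 CPM in it against 1824 and 1220 in the neuroblast-like class, and mature neuron markers to 314 and 390 against 129 and 128. Dividing cell-like cells numbered 149, with Top2a, a mitotic enzyme, at 1378 CPM against 83.5 in the neuroblast-like class. Astrocyte-like cells, a class that can include stem cells, numbered 276 and ependymal-like cells 235. The astrocyte-like class joined a Slc7a10-led cluster of 202 cells and a Gfap-led cluster of 74 cells. All 20 endothelial-like, all 14 microglia-like and all 8 mural-like cells were in the tdTomato-positive library. Endothelial markers were at 0 UMIs for 6 of 10 genes in the neuroblast-like class, Cldn5, Flt1 and Cdh5 among them, and summed to 17.6 CPM. The negative libraries, source of nearly all neuroblast-like cells, held no endothelial-like cells, so this check could hardly fail. Astrocyte, oligodendrocyte and ependymal markers summed to 529, 222 and 197 CPM in the same class, with none at 0 UMIs.

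The label of the gene group held for some members and not for others. The dividing, neuroblast-like and Prokr2-Foxp2-Tshz1 classes together held 58.0% of all UMIs of kept cells. Of the UMIs of Islr2, 98.5% lay in them, and the shares for Tiam2, Robo2, Shtn1, Plxna4 and Ncam1 were 97.4%, 95.4%, 92.5%, 85.4% and 83.3%. Cd200, at 48.8% of 168 UMIs, and Nrp1, at 32.0% of 50, lay below the share of all UMIs. These shares pool all libraries. The tdTomato-positive library gave 47 of the Cd200 and 12 of the Nrp1 UMIs, yet held almost no cells of these classes. Shares within the negative libraries alone were not computed. The share was 73.7% for Robo1 and 78.3% for Dcc, which gave 38 and 23 UMIs in all 1629 cells, so their levels by class have wide intervals.

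Of the 10 genes, 6 matched entries in the RefSeq promoter table for GRCm38.p6, which holds 250 bases before and 50 after each start. Promoters are shown where the start lay within 10 bases of the gene's 5′ end in the GENCODE annotation. This held for Islr2, Robo2 and Cd200, and levels played no part in the choice. Capitals mark the motif matches found on either strand among TAATTA (homeodomain), CAGCTG (E-box), AACAAT (SOX) and GGGCGG (SP). The Islr2 window is chr9:58204270-58204569, the Robo2 window chr16:74411776-74412075 and the Cd200 window chr16:45409004-45409303, all of genes on the minus strand and printed 5′ to 3′ along the gene.
Islr2: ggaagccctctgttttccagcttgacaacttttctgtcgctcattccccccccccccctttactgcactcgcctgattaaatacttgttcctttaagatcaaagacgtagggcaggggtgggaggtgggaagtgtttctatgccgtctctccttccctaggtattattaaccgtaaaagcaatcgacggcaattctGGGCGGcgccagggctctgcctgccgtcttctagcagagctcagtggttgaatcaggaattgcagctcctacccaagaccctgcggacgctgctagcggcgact
Robo2: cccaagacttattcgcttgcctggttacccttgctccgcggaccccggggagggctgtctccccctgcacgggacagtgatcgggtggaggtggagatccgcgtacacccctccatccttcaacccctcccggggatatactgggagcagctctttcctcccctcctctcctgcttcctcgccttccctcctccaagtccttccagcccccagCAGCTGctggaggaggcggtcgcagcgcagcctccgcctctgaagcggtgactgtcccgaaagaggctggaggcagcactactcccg
Cd200: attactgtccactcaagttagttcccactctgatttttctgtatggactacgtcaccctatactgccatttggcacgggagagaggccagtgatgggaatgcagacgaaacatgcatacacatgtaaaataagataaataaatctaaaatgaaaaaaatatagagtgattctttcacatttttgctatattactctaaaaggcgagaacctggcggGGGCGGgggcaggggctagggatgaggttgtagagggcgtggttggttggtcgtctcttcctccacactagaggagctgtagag
The Islr2 window holds GGGCGG at position −54 from the start site and the Cd200 window holds it at −34, a motif found in 35.7% of the 32851 promoters of this length. The Robo2 window holds CAGCTG at −37, found in 16.3% of them. TAATTA and AACAAT, present in 5.29% and 10.7% of all promoters, are not in these windows. Islr2 and Robo2 have other listed starts, not shown, whose windows hold none of these motifs. GC content was 54.0% for Islr2, 65.0% for Robo2 and 45.0% for Cd200.

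Robo2 (chromosome 16, 73891839 to 74411825, minus strand, GRCm38), a Slit receptor, was highest in the Prokr2-Foxp2-Tshz1 class. It stood at 393 and 311 CPM in negative libraries 1 and 2 (352 ± 58.2, SD, n = 2). In the neuroblast-like class the values were 151 and 119 CPM (135 ± 22.4), and in dividing cells 46.3 and 43.0. The order from dividing to neuroblast-like to Prokr2-Foxp2-Tshz1 cells was the same in both libraries, with no overlap between classes. Pooled levels put the Prokr2-led cluster at 376 CPM (interval 320 to 440), the Meg3-led cluster at 295 (251 to 344) and the neuroblast-like class at 125 (103 to 150). Astrocyte-like cells gave 0, 31.4 and 18.8 CPM in the tdTomato-positive library and negative libraries 1 and 2, and ependymal-like cells gave 1.70, 66.7 and 5.65. The 66.7 rests on 3 UMIs from 12 cells. A Robo2 UMI was found in 27.6% of neuroblast-like cells and 2.13% of ependymal-like cells, whose median depths were 2724 and 3620 UMIs. After each cell was thinned to 1000 UMIs these shares were 14.0% and 0.922%.

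**Figure D1:**
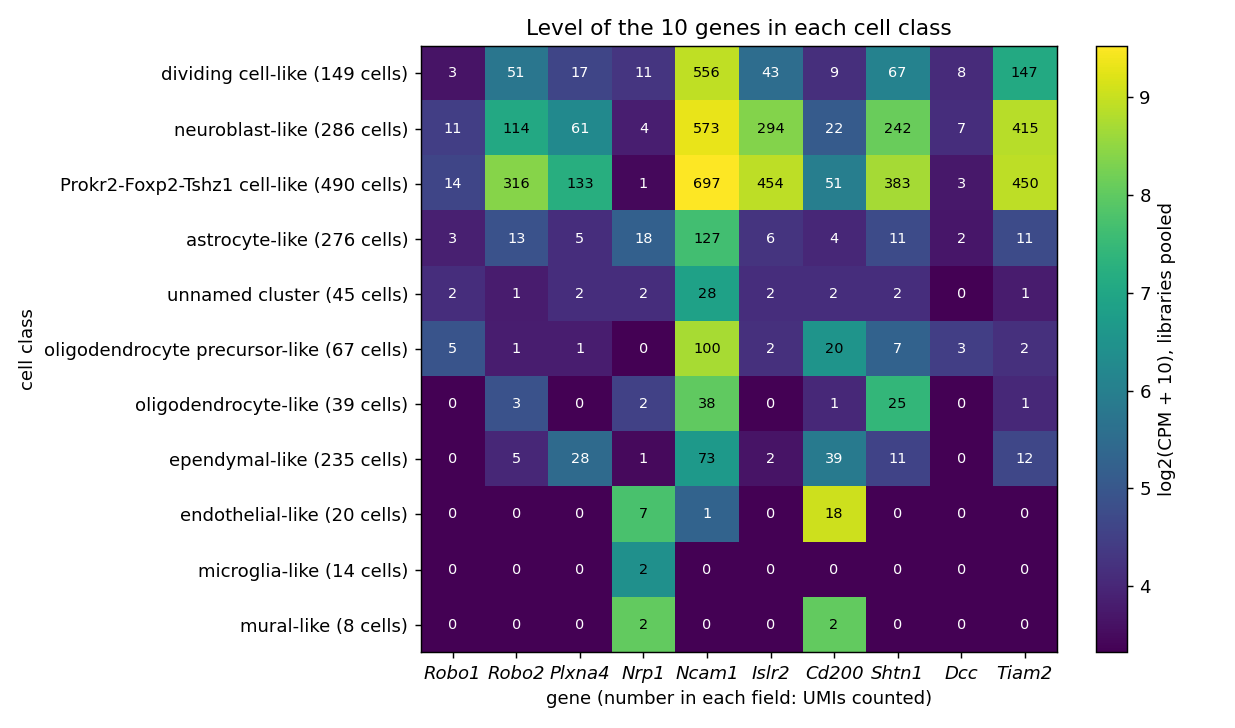
Heat map of pooled levels of the 10 genes (columns) in 11 cell classes (rows), as log2(CPM + 10) from dark (low) to bright (high), with the number of UMIs printed in each field. Robo2, Islr2, Shtn1 and Tiam2 are bright in the 2 neuronal classes, Cd200 is brightest in endothelial-like cells, Nrp1 in endothelial-like and mural-like cells, and Robo1 and Dcc hold 14 UMIs or fewer in every field.

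Robo1 (chromosome 16, 72308306 to 73046095, plus strand), a related Slit receptor, gave 14 UMIs in the Prokr2-Foxp2-Tshz1 class and 11 in the neuroblast-like class. Its level was 12.1 CPM (6.03 to 21.6) in neuroblast-like cells and 2.57 (0.530 to 7.51) in dividing cells. In ependymal-like cells it had 0 UMIs, where the counting interval reaches 4.55 CPM. Oligodendrocyte precursor-like cells gave 5 UMIs, or 20.6 CPM (6.69 to 48.1), an interval that overlaps those of both neuronal classes.

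Plxna4 (chromosome 6, 32144268 to 32588192, minus strand), a receptor for class 3 and class 6 semaphorins, was highest in the Prokr2-Foxp2-Tshz1 class at 144 and 137 CPM (141 ± 4.70, n = 2). Neuroblast-like cells stood at 61.5 and 65.9 CPM and dividing cells at 19.3 and 13.2. Again the classes did not overlap between the libraries. By cluster, the Meg3-led cells stood at 157 CPM (125 to 194) and the Prokr2-led cells at 116 (85.4 to 153), intervals that overlap. Ependymal-like cells also held Plxna4, at 30.6, 22.2 and 50.8 CPM in the 3 libraries, above astrocyte-like cells at 0, 10.4 and 7.51. The antisense genes Plxna4os1, Plxna4os2 and Plxna4os3 overlap it on the other strand.

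Nrp1 (chromosome 8, 128358604 to 128503363, plus strand), a co-receptor for class 3 semaphorins and Vegfa, was near its floor in neuroblasts. It gave 4 UMIs in the neuroblast-like class, 1 in the Prokr2-Foxp2-Tshz1 class and 11 in dividing cells. Its pooled level was 204 CPM (82.0 to 420, from 7 UMIs) in endothelial-like cells and 27.3 (16.2 to 43.1, from 18 UMIs) in astrocyte-like cells. The 8 mural-like cells gave 2 UMIs. The neuroblast-like level was 4.39 CPM (1.20 to 11.2), below the intervals of endothelial-like and astrocyte-like cells. All 18 astrocyte-like UMIs lay in the Slc7a10-led cluster. The Gfap-led cluster had 0 UMIs, with an interval up to 23.2 CPM.

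Dcc (chromosome 18, 71253634 to 72351069, minus strand), the netrin-1 receptor, gave 7 UMIs in neuroblast-like, 8 in dividing and 3 in Prokr2-Foxp2-Tshz1 cells. Oligodendrocyte precursor-like cells gave 3 and astrocyte-like cells 2. The intervals of these classes overlap, so no order could be read at this depth.

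Ncam1 (chromosome 9, 49502136 to 49798925, minus strand), the adhesion molecule that carries polysialic acid, was also well detected outside the neuronal classes. It stood at 825 and 698 CPM in the Prokr2-Foxp2-Tshz1 class, 761 and 597 in the neuroblast-like class and 547 and 456 in dividing cells. The neuronal classes overlapped, and the dividing cells lay below both. Oligodendrocyte precursor-like cells held 580 and 353 CPM. Astrocyte-like cells stood at 156, 303 and 175 CPM and ependymal-like cells at 81.6, 200 and 90.4, all below the neuronal classes. With libraries pooled, the Slc7a10-led astrocyte-like cluster stood at 225 CPM (186 to 271) and the Gfap-led cluster at 87.9 (48.0 to 147). A Ncam1 UMI was found in 79.4% of neuroblast-like and 24.7% of ependymal-like cells, and after thinning in 44.1% and 10.6%.

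Islr2 (chromosome 9, 58196297 to 58204319, minus strand), a leucine-rich repeat and immunoglobulin protein of growing axons, was low or at 0 outside the neuronal classes. It stood at 520 and 459 CPM in the Prokr2-Foxp2-Tshz1 class (489 ± 42.8, n = 2) and at 336 and 318 in the neuroblast-like class (327 ± 12.3). Dividing cells held 15.4 and 43.0 CPM. Astrocyte-like cells held 0, 20.9 and 7.51 CPM, and ependymal-like cells 1.70, 0 and 5.65. The 8 mural-like cells had 0 UMIs, but their interval reaches 466 CPM, so nothing can be said of them. After thinning, 28.0% of neuroblast-like, 38.5% of Prokr2-Foxp2-Tshz1 and 3.36% of dividing cells had an Islr2 UMI. None of the thinned ependymal-like cells did. The gene Islr overlaps Islr2 on the same strand in the GENCODE annotation.

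Cd200 (chromosome 16, 45382135 to 45409053, minus strand), a surface glycoprotein that restrains myeloid cells through its receptor, stood in endothelial-like cells at 524 CPM (311 to 829, from 18 UMIs). The 8 mural-like cells gave 2 UMIs, 253 CPM (30.6 to 913), an interval that covers it. Oligodendrocyte precursor-like cells stood at 62.7 and 89.5 CPM in negative libraries 1 and 2. The Prokr2-Foxp2-Tshz1 class stood at 52.4 and 53.6 CPM and the neuroblast-like class at 16.8 and 26.1, without overlap. Ependymal-like cells gave 44.2, 0 and 73.4 CPM, a range that spans both neuronal classes. Cd200r1, which encodes the receptor, had 0 UMIs in every class. In the 14 microglia-like cells a count of 0 has an interval up to 141 CPM, so its absence there cannot be read.

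Shtn1 (chromosome 19, 58973356 to 59076100, minus strand) encodes shootin1, which couples actin flow to adhesion at the leading process. Its levels were 397 and 400 CPM in the Prokr2-Foxp2-Tshz1 class, 274 and 262 in the neuroblast-like class and 50.1 and 59.5 in dividing cells. The 3 classes did not overlap. Among the glia, oligodendrocyte-like cells held 37.1 CPM in the tdTomato-positive library and 202 in negative library 2, while astrocyte-like and ependymal-like cells stayed at 22.6 CPM or below.

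Tiam2 (chromosome 17, 3326573 to 3531344, plus strand) encodes an exchange factor that activates Rac. It stood at 291 and 497 CPM in the neuroblast-like class and at 358 and 506 in the Prokr2-Foxp2-Tshz1 class, ranges that overlap. Dividing cells stood at 123 and 127 CPM, below both. The negative libraries differed in the neuroblast-like class, whose mean was 394 ± 146 CPM (SD, n = 2), and library 2 was the higher in both neuronal classes. Ependymal-like cells gave 6.80, 66.7 and 28.2 CPM.

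**Figure D2:**
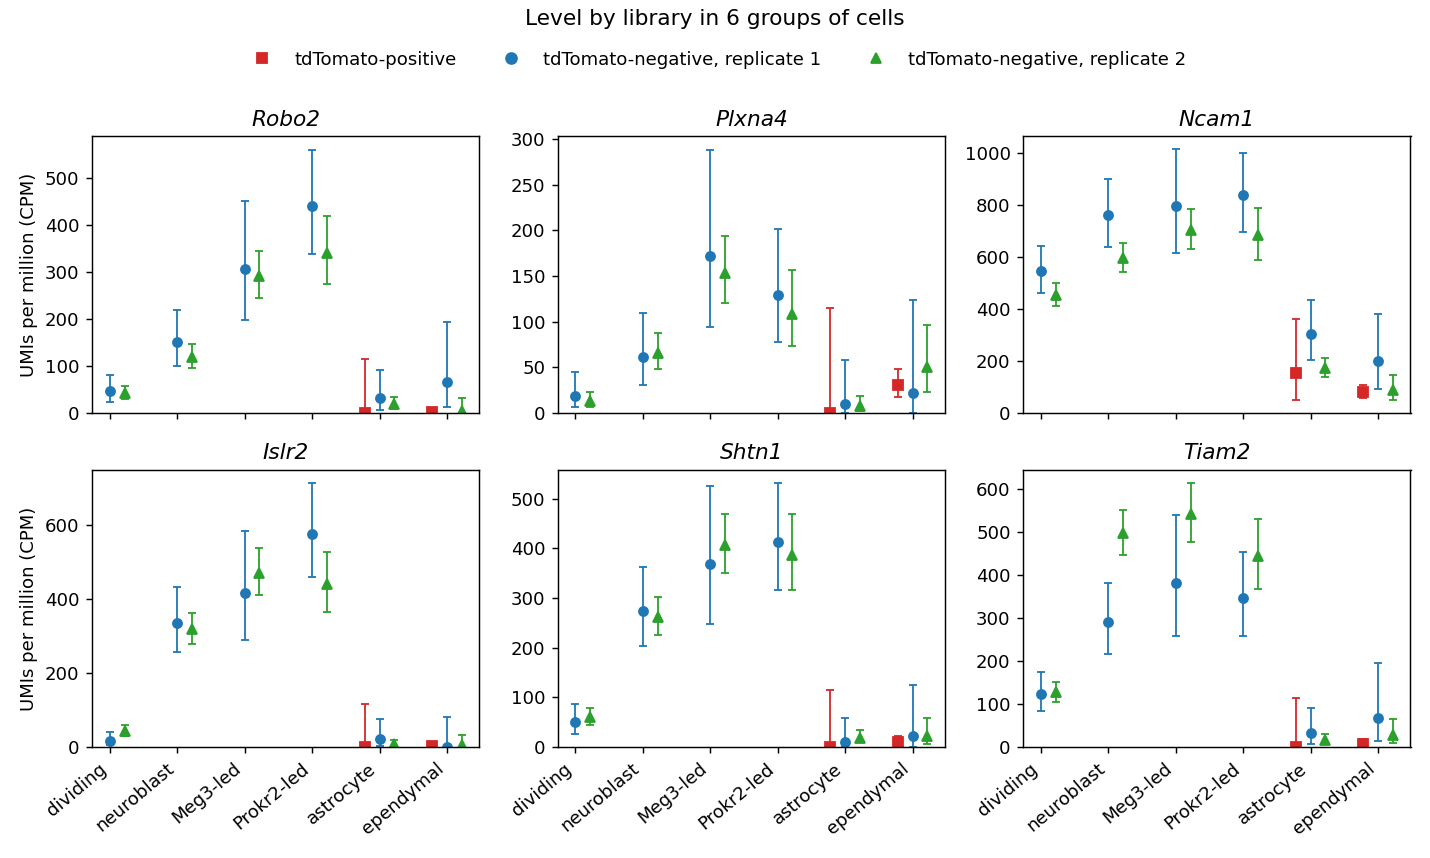
Levels in CPM (linear axis) of Robo2, Plxna4, Ncam1, Islr2, Shtn1 and Tiam2 by library in 6 groups of cells, with exact 95% counting intervals. Each point is 1 library, marked by colour and shape, and dividing cells lie below neuroblast-like and these below Prokr2-led cells in both negative libraries for Robo2, Plxna4, Islr2 and Shtn1.

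The classes were then compared with edgeR's quasi-likelihood test on 19 sums per library and class, with library as a block and Benjamini-Hochberg adjustment over 4361 genes. The filter on low counts kept 8 of the 10 genes and left out Robo1 and Dcc. Residual degrees of freedom were 7 with all libraries, 2 without negative library 1 and 1 without library 2. The part of this loss in calls that ended without a library was not tested. The 3 comparisons of the neuroblast-like class below share its sums, and the clusters were built from genes that vary with the tested ones, so the calls describe the classes.

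Against astrocyte-like cells, neuroblast-like cells held more of the receptors Robo2 and Plxna4, of Ncam1 and Islr2, and of the effectors Shtn1 and Tiam2. Tiam2 was higher by 4.54 ± 0.38 on the log2 scale (SE, adjusted p = 2.19e-31), Islr2 by 4.97 ± 0.43 (1.66e-28) and Shtn1 by 3.87 ± 0.39 (3.52e-21). The differences for Ncam1, Robo2 and Plxna4 were 1.57 ± 0.23, 2.49 ± 0.42 and 2.95 ± 0.59. Nrp1 was lower, with a log2 difference of -2.56 ± 0.87 (adjusted p = 0.0116), and Cd200 was higher by 1.80 ± 0.76 (0.0479). In all, 7 of 8 were called higher and 1 lower, where 19.0% of all genes were higher and 18.8% lower. The median difference of the 8 was 2.72 against 0.05 over all genes. Without negative library 2 the Robo2 difference was 2.27 with an adjusted p of 0.0519, Nrp1 was at -0.65 (0.89) and Cd200 at -0.37 (0.918). Cd200 passed in 6 of 12 alternative analyses, with adjusted p-values from 0.00252 to 0.918, and Nrp1 in 7 of 10 (0.00189 to 0.89).

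**Figure D3:**
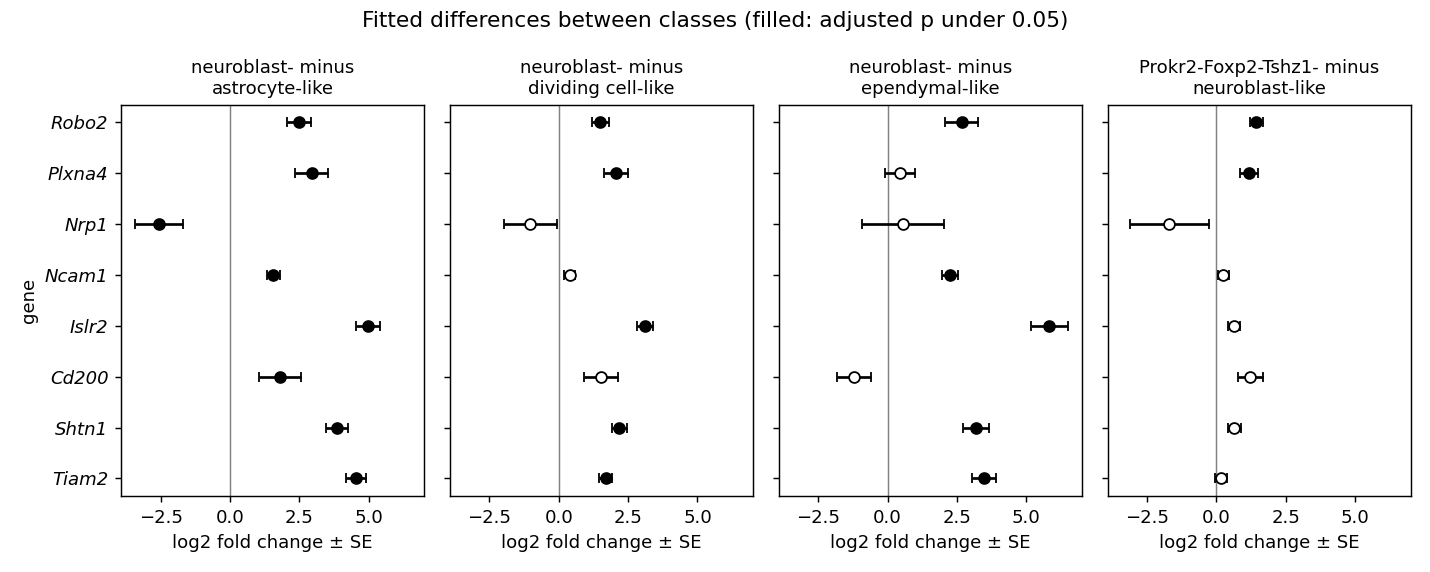
Log2 fold changes with standard errors of the 8 tested genes in the 4 class comparisons; filled points have an adjusted p under 0.05 (edgeR quasi-likelihood). Islr2, Robo2, Shtn1 and Tiam2 lie right of 0 against astrocyte-like, dividing and ependymal-like cells, 3 comparisons that share the neuroblast-like sums.

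The other guidance and adhesion genes, 111 tested from 7 lists, divided between the classes: 31 were higher in neuroblast-like and 27 in astrocyte-like cells. The counts of each list below stand against the 19.0% of all genes called higher and 18.8% lower. A list near those shares shows nothing about the list, and the genes named are single results. Rac and actin effectors were higher for 11 of 22 and lower for none, led by Pak3, a kinase downstream of Rac, at 5.13 ± 0.48. Kif20b, a kinesin of cell division, had 10 UMIs against 0, at least 2.43-fold higher. Of 23 semaphorins, plexins and their CRMP relays, 6 were higher and 8 lower. Dpysl3 (4.61 ± 0.34) and Dpysl5 (3.78 ± 0.57), cytoskeletal relays of semaphorin signals, were higher. Vegfa, a ligand of Nrp1, had 3 UMIs against 161, 73.7-fold lower (24.8 to 361), and Sema4a had 1 against 40. Adhesion genes were higher for 3 of 28 and lower for 10. St8sia4, which makes polysialic acid, had 31 UMIs against 0 (at least 7.52-fold higher), and the teneurin Tenm2 had 22 against 0. The integrin chains Itga6 and Itgav had 2 UMIs each against 44 and 36.

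Among Slit-Robo partners 3 of 9 were higher, with Gpc1 (2.09 ± 0.77) and Flrt2 (1.61 ± 0.61) leading, and none lower. Of 11 netrin partners, 2 were higher: Draxin, a secreted ligand of Dcc, with 60 UMIs against 2, and the kinase Fyn at 1.15 ± 0.35. The 3 lower included Dock1, with 0 UMIs against 27, at least 12.4-fold lower, and Unc5c with 3 against 15. Of 8 ephrins and Eph receptors, 4 were higher, led by Efnb1 (2.66 ± 0.52) and Epha4 (2.58 ± 0.43). The 2 lower were Ephb3 (-2.95 ± 0.74) and Epha5 (-2.12 ± 0.42). Of 10 attractant receptors, Erbb4 (2.33 ± 0.65) and Igf1r (0.88 ± 0.36) were higher. Ntrk2, the BDNF receptor, was among the 4 lower at -3.67 ± 0.27, and Gfra1 had 2 UMIs against 30. Without negative library 1, 6 of 23 of these named genes with a value lost their call, and without library 2, 2 of 8.

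Against dividing cells the same class held more Islr2, Shtn1, Tiam2, Plxna4 and Robo2. Islr2 was higher by 3.12 ± 0.29 (adjusted p = 5.52e-25), Shtn1 by 2.18 ± 0.27 (2.19e-13), Tiam2 by 1.69 ± 0.24 (1.3e-10), Plxna4 by 2.06 ± 0.44 (9.26e-05) and Robo2 by 1.49 ± 0.31 (4.23e-05). These 5 of 8 compare with 3.74% of all genes called higher and 5.78% lower, and the median of the 8 was 1.60 against -0.02. Ncam1 differed by 0.39 ± 0.20 and did not pass (adjusted p = 0.262), though it passed in 5 of 12 alternative analyses, at 0.50 (0.00536) without the tdTomato-positive library. Cd200 differed by 1.52 ± 0.62 (0.108), and passed in 6 of 12 alternatives (0.49 to 2.88), at 1.64 (0.0495) without that library, and Nrp1 by -1.03 ± 0.95 (0.628). Robo2 lost its call without either negative library, at 1.42 (0.314) without library 1 and 1.67 (0.275) without library 2. Plxna4 was at 2.24 (0.0612) without library 1 and Tiam2 at 1.22 (0.245) without library 2. Dividing cells were deeper, with a median of 7304 UMIs a cell.

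Of the other lists, 14 of 111 were higher than in dividing cells and 3 lower, beside 3.74% and 5.78% of all genes. Semaphorin, plexin and CRMP genes made up 7 of the 14, out of 23 tested, with Sema4b at 2.54 ± 0.62 and Sema5a at 12 UMIs against 2. Srgap2, which relays Robo signals to Rac, was the sole Slit-Robo partner called (1.17 ± 0.30). St8sia2, the second polysialic acid enzyme, was higher by 1.30 ± 0.45, and Tenm4 had 34 UMIs against 3. Pak7 (2.64 ± 0.39), Arpc5 (0.74 ± 0.24) and Erbb4 (2.09 ± 0.53) were higher as well. The 3 lower genes were Kif20b (-3.82 ± 0.43), Ptprz1 (-1.18 ± 0.25) and Dock1, with 0 UMIs against 14. No ephrin or Eph receptor of 8 passed. Without negative library 1, 7 of 11 of these genes lost their call, and without library 2, 4 of 5 with a value.

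Against ependymal-like cells, which line the ventricle beside the neuroblasts, 5 of 8 genes were higher: Islr2, Tiam2, Ncam1, Shtn1 and Robo2. Islr2 had 292 UMIs against 2, a ratio of pooled levels of 130-fold (35.8 to 1082), and the fit with library as a block gave a log2 difference of 5.83 ± 0.67 (adjusted p = 8.62e-17), or 57.0-fold. Tiam2 was higher by 3.49 ± 0.43 (adjusted p = 1.7e-14), Ncam1 by 2.26 ± 0.29 (4.4e-13), Shtn1 by 3.17 ± 0.47 (2.12e-10) and Robo2 by 2.67 ± 0.60 (5.77e-05). Over all genes 13.6% were higher and 22.9% lower, and the medians were 2.46 for the 8 genes and -0.07 for all. Plxna4 differed by 0.46 ± 0.55 (0.553), though it passed at resolution 2.0 (1.34, 0.0334) and with the Meg3-led cluster counted as neuroblast-like (1.25, 0.0353), and Cd200 by -1.21 ± 0.61 (0.112). Nrp1 had 4 UMIs against 1. Robo2 was at 1.37 (0.331) without negative library 2. Most ependymal-like cells, 177 of 235, came from the tdTomato-positive library, and their median mitochondrial share was 8.61% against 3.14% in neuroblast-like cells. The part of this share in the differences was not tested.

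Other genes higher than in ependymal-like cells numbered 24 of 111, and 14 were lower, beside 13.6% and 22.9% of all genes. The 4 of 28 adhesion genes below are close to the first share. All 4 ephrin and Eph calls were higher, with Epha4 at 3.01 ± 0.64 and Efna2 at 10 UMIs against 1. Of 22 Rac and actin effectors 8 were higher, Pak3 by 3.71 ± 0.54 and Pak7 with 93 UMIs against 3. Dpysl3 had 620 UMIs against 3 and Crmp1 was higher by 2.87 ± 0.46, while Sema6d (-2.68 ± 0.48) and Sema6a (-2.20 ± 0.74) were lower. Draxin had 60 UMIs against 0 (at least 17.9-fold higher) and Fyn was higher by 1.67 ± 0.49. Ntn4 had 3 against 19 and Dock1 0 against 17. Flrt2 was higher by 3.21 ± 1.07, and Srgap3 (-1.34 ± 0.44) and Enah (-0.99 ± 0.30) were lower. Of these 28 adhesion genes, St8sia4 was higher with 31 UMIs against 0 and Adgrl3 with 14 against 2. Alcam (-2.20 ± 0.63) and Cadm1 (-1.86 ± 0.28) were lower. Of 10 attractant receptors 3 were lower, Ntrk2 at -3.81 ± 0.29 and Gfra1 with 2 UMIs against 12. Leaving out the tdTomato-positive library, negative library 1 or library 2 ended 4 of 19, 6 of 20 and 5 of 11 of these named calls.

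Between the neuronal classes, Prokr2-Foxp2-Tshz1 cells held more Robo2 and Plxna4 than neuroblast-like cells. Robo2 was higher by 1.44 ± 0.24 (adjusted p = 6.97e-07) and Plxna4 by 1.17 ± 0.31 (0.00989), 2 of 8 where 1.38% of all genes were higher and 1.54% lower. Islr2 (0.64 ± 0.21, 0.0791), Shtn1 (0.65 ± 0.22, 0.0895) and Cd200 (1.22 ± 0.45, 0.137) did not pass. Without the tdTomato-positive library Islr2 was at 0.61 (0.00381) and Shtn1 at 0.63 (0.00446). Ncam1 differed by 0.24 (0.742), Tiam2 by 0.18 (0.821), and Nrp1 had 1 UMI against 4. The dividing and mature neuron markers given above differ between these classes as well, and their part in the result was not tested. With the Meg3-led cluster counted as neuroblast-like, an alternative chosen after seeing the data, Robo2 was at 0.85 (0.0505) and Plxna4 at 0.11 (1.0). Robo2 was at 1.44 (0.803) and 1.48 (0.295) without negative library 1 or 2, and Plxna4 passed in 3 of 11 alternatives. With the same classes the Plxna4 call was lost by DESeq2 (1.20, 0.487), without the low-count filter (1.14, 0.135) and without the block (1.16, 0.116).

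Of the other lists, 9 of 111 were higher in Prokr2-Foxp2-Tshz1 cells and none lower by the same edgeR test, beside 1.38% and 1.54% of all genes. The absence of lower calls is close to that second share and shows nothing about the lists. Among them were Sema5a (2.33 ± 0.48), Ncam2, a relative of Ncam1 (2.10 ± 0.56), Tenm4 (1.79 ± 0.36), Erbb4 (1.34 ± 0.36) and Evl (0.87 ± 0.24). Without negative library 1 each of these lost its call, as did Sema5a and Evl, the 2 with a value, without library 2. DESeq2 and resolution 2.0 also ended each of them, and the moved cluster, odd-digit clustering and removal of Scrublet calls each ended 5 of the 6 calls that the naming rule gave.

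The tdTomato gate, driven by the smooth muscle actin promoter, was compared over all kept cells. Robo2 stood at 1.39 CPM in the tdTomato-positive library (1 UMI) and at 148 and 102 in negative libraries 1 and 2. Islr2 stood at 5.55 against 201 and 171 CPM, Tiam2 at 6.94 against 187 and 240, Shtn1 at 13.9 against 171 and 162 and Ncam1 at 83.3 against 595 and 441. All 5 were lower in the tdTomato-positive library than in both others. The share of all genes lower than in both was not computed. Cd200 stood at 65.2 against 27.0 and 26.8 CPM, above both without overlap of the counting intervals. Plxna4 stood at 29.2 against 56.1 and 48.5 CPM and Nrp1 at 16.7 against 10.8 and 7.81, with counting intervals that overlap those of both negative libraries. Robo1 had 0 UMIs against 38, at least 2.02-fold lower, and Dcc 0 against 23. A fit of 1 library against 2 (edgeR, 10944 genes, 1 residual degree of freedom) called 6 of 9 genes lower and 1 higher, where 19.0% of all genes were lower and 22.9% higher. The spread of the tdTomato-positive arm cannot be measured from 1 library and was assumed to equal that of the others, so the calls compare these libraries and do not speak for the gate. DESeq2 did not call Robo1 or Cd200.

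The cell classes of the gate moved with these differences. The tdTomato-positive library held 1 neuroblast-like, 1 Prokr2-Foxp2-Tshz1 and 0 dividing cells, and 70.2% of its cells were ependymal-like. Its median mitochondrial share was 8.27%, against 3.22% and 3.38%. Of its 47 Cd200 UMIs, 26 lay in ependymal-like and 18 in endothelial-like cells. Of its 21 Plxna4 UMIs, 18 lay in ependymal-like cells. Within ependymal-like cells Cd200 stood at 44.2 CPM (28.9 to 64.8) in this library and 73.4 (39.1 to 126) in negative library 2, and Plxna4 at 30.6 (18.1 to 48.4) and 50.8 (23.2 to 96.5), intervals that overlap. Negative library 1 held 12 such cells, too few to place either gene: Cd200 had 0 UMIs, with an interval up to 82.1 CPM, and Plxna4 had 1.

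How many of the 10 genes each cell carried was counted after thinning to 1000 UMIs, which left out 41, 12 and 6 cells. Prokr2-Foxp2-Tshz1 cells carried a mean of 2.22 and 2.05 of the genes in negative libraries 1 and 2, neuroblast-like cells 1.59 and 1.59, dividing cells 0.679 and 0.760 and astrocyte-like cells 0.231 and 0.210. The order of the 4 classes was the same in both libraries. No gene of the group was found in 22.7% and 19.5% of neuroblast-like cells and in 82.1% and 81.3% of astrocyte-like cells. At this depth a cell without a UMI may still express the gene.

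**Figure D4:**
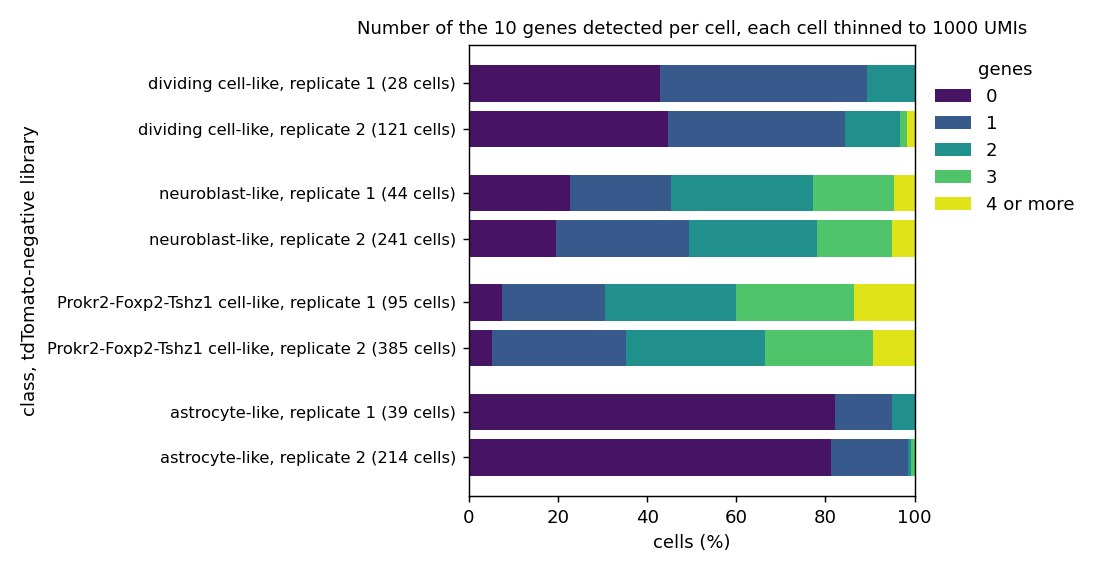
Percentage of thinned cells with 0, 1, 2, 3 or at least 4 of the 10 genes, stacked, in dividing, neuroblast-like, Prokr2-Foxp2-Tshz1 and astrocyte-like cells of negative libraries 1 and 2. Cells with at least 4 genes make up 13.7% and 9.35% of the Prokr2-Foxp2-Tshz1 class and 4.55% and 4.98% of the neuroblast-like class.

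Pairs of the genes in the same cell were compared with the product of their single shares. In neuroblast-like cells of negative library 2, the observed share of 11 pairs divided by the product of the single shares ranged from 0.956 to 1.30, with a median of 1.08. In library 1 the ratio of 5 pairs ranged from 0.555 to 1.57. In Prokr2-Foxp2-Tshz1 cells it ranged from 0.617 to 1.57 over 13 pairs in library 1 (median 1.00) and from 0.496 to 1.37 over 20 pairs in library 2 (median 0.958). These ratios are a description of sparse counts and carry no test.

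Across the 19 sums of library and class, the 6 genes with at least 200 UMIs were correlated to differing degrees. Pearson's r on log2(CPM + 10) was highest for Robo2 with Tiam2 (0.927) and lowest for Plxna4 with Ncam1 (0.524). Sums of the same library or class share cells' depth and makeup, so these are descriptions. Among 4101 genes, Robo2 was most like Dlx6os1 (0.936), a long noncoding RNA of the Dlx locus, then Dpysl5 (0.932) and Tiam2. Tiam2 was most like Dlx6os1 (0.953), Sp9 (0.942) and Slc32a1 (0.927). Islr2 was most like Slc32a1 (0.959), the vesicular GABA transporter, Lrrc7 (0.953) and Actl6b (0.938). Plxna4 was most like Synpr (0.923), Tiam2 (0.882) and Foxp2 (0.867). Ncam1 was most like Pfn2 (0.929), Soga3 (0.923) and Ctnna2, and Shtn1 most like Actl6b (0.882), Tubb3 (0.877) and Elavl3. Dlx6os1, Sp9, Foxp2 and Tubb3 were among the markers used to name classes. Synpr, Soga3, Lrrc7, Actl6b and Elavl3 belonged to the gene set given to clustering. The likeness of all these genes may therefore not be independent of how the classes were drawn.

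The ligands of these receptors lay in several classes, chosen here for their role. Slit1 was found in Prokr2-Foxp2-Tshz1 (21 UMIs), dividing (18) and neuroblast-like cells (16), with 0 in astrocyte-like and ependymal-like cells. Slit2 gave 17 UMIs in dividing, 15 in Prokr2-Foxp2-Tshz1, 13 in ependymal-like and 11 in the 45 cells of a cluster that the markers left unnamed. Slit3 gave 1 UMI in all. Ntn1, encoding netrin-1, gave 16 UMIs in all, 7 of them in oligodendrocyte precursor-like and 0 in neuroblast-like cells. Sema3c stood at 583 CPM (20 UMIs) in endothelial-like cells and Sema3d at 157 CPM (38 UMIs) in oligodendrocyte precursor-like cells. Vegfa stood at 467, 376 and 207 CPM in astrocyte-like cells of the 3 libraries. Robo4, a receptor of the Robo family and not a ligand, was found as 7 UMIs in endothelial-like cells alone among the classes.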

How the data were processed

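The 3 libraries were made with 10x Chromium 3' v2 chemistry. The deposited matrices give each gene's UMI count in each barcode as raw whole numbers, which the authors did not normalise. The submitters' processing notes name the builds GRCm38.p5 and mm10 and the tools STAR, Cell Ranger and Seurat (1.4.0.15). The rule that called barcodes cells is not given in the sources used here.

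Everything else was computed from the counts. Barcodes with at least 300 genes and no more than 25% mitochondrial UMIs were retained. Cells were scaled to 10000 UMIs, log-transformed with a pseudocount of 1 and clustered without integration (1000 variable genes, 20 components, 15 neighbours, Leiden resolution 1.0, seed 1) with scanpy 1.11.5, anndata 0.12.19, igraph 0.11.9, numpy 2.4.6, pandas 2.3.3 and scipy 1.17.1 in Python 3.11.15. Clustering used genes with an even last Ensembl digit plus 141 markers, without any listed gene (14029 genes). Tests used the odd-digit and listed genes without markers (13969 genes). A cluster took the name of the list, of 14, with the most markers among its 10 leading genes (in at least 25% of cells, ranked by fold with 20 CPM added), if at least 3 markers were 2-fold higher. No doublets were removed. Scrublet called 9, 2 and 6 cells of the tdTomato-positive library and negative libraries 1 and 2, and their removal was an alternative.

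Counts were summed per library and class with at least 10 cells (19 sums, library as a block because classes of a library are paired by construction, 7 residual degrees of freedom). The test was edgeR's quasi-likelihood test (edgeR 4.0.16, limma 3.58.1, R 4.3.3) with TMM, filterByExpr and Benjamini-Hochberg adjustment at 0.05. SEs were taken as the absolute log2 fold change over the root of the F statistic. Where a group held 0 UMIs, the fold is a bound against 3 counts over the group. With 1 to 3 UMIs the ratio has an exact 95% interval. The procedure was run on simulated sums with the same mean profile in every class, a constant spread and changes in neuroblast-like sums only. This checks the code and gives no error rate for the real sums. Gene positions are from GENCODE for GRCm38. Alternatives were DESeq2 1.42.0, RLE scaling, no low-count filter, no block, leaving out each library, at least 1000 genes and at most 10% mitochondrial UMIs a cell, odd-digit clustering, resolutions 0.5 and 2.0, removal of Scrublet calls and a moved cluster.

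The 10 genes and the 7 other lists (163 genes, of which 158 have values here) were chosen with earlier results of these data known. Named were all 10 genes, the 2 called genes of each other list with the largest absolute fold change in each direction, and the 3 genes most like each gene with at least 200 UMIs. A gene that this rule names is not reported here.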

Additional observations from a re-analysis of the deposited data

How the results depend on the processing

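In the neuroblast-like against astrocyte-like comparison 1649 genes passed, and 990 passed with the stricter cell filter. Leaving out a library gave 425 to 1707 genes and 4 to 8 of the 10 genes of the group. Cd200, at 1.80, turned to -0.37 (adjusted p 0.918) without negative library 2 and stood at 3.51 without library 1. RLE scaling moved the median of all genes from 0.05 to -0.14, and DESeq2 changed the share of calls that were higher from 50.2% to 38.6%. RLE gave 40.9% and removal of Scrublet calls 63.9%, with a median of 0.38. Against dividing cells 415 genes passed, with 119 by DESeq2, 256 without the low-count filter, 254 without the replicate block and 705 with odd-digit clustering. Leaving out a library gave 27 to 607 genes and 2 to 7 of the group. Against ependymal-like cells 1594 genes passed, and leaving out a library gave 379 to 1504 genes and 4 to 5 of the group.

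In the comparison of Prokr2-Foxp2-Tshz1 with neuroblast-like cells, the 127 genes, 2 of the group, became 36 (1) with DESeq2, with 33.3% of calls higher in place of 47.2%. They became 217 (4) with RLE, 52 (1) without the low-count filter, 57 (1) without the block, 20 (0) with odd-digit clustering, 81 with the stricter cell filter, 14 (1) at resolution 2.0 and 54 with Scrublet calls removed. With the Meg3-led cluster counted as neuroblast-like, added after seeing the data, 43 genes and 0 of the group passed. Leaving out a library gave 1 to 231 genes and 0 to 4 of the group. Beside the counts of 0 in the group by edgeR, 128, 94, 238 and 363 genes of all those tested had an unadjusted p under 0.05 (without negative library 1, without library 2, odd-digit clustering, moved cluster). In the gate comparison 4579 genes passed and 1907 by DESeq2. No paired analysis was possible for the gate because no label pairs the libraries, and without a negative library no residual degrees of freedom are left.

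Single genes of the group kept their side of the threshold in 83, 78, 90 and 76 of 93 alternative values. These counts are for the comparisons with astrocyte-like, dividing and ependymal-like cells and between the neuronal classes. Direction was required of called genes only. Genes not called could change sign and still be counted, as with Ncam1 between the neuronal classes (-0.26 to 0.31). In the gate comparison DESeq2 ended the calls of Robo1 and Cd200. Resolution 0.5 gave no neuroblast-like or Prokr2-Foxp2-Tshz1 class, so no class comparison was made there. Depth limits Robo1, Dcc and Nrp1, with 23 to 50 UMIs each.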
